A study of Mus musculus with 44 samples.

Results

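The comparison concerns RNA of the paraventricular thalamic nucleus (PVT) from adult C57BL/6 mice and sets Polg(D181A) animals against wild-type (WT) animals. Both groups were labelled euthymic for behavioural state and positive for cytochrome c oxidase (COX) staining, so genotype is the only labelled difference between them. The members were the 4 columns of the RNA count table that carry the mutant genotype, euthymic state and positive staining, and the 4 columns that carry the wild-type genotype with the same state and staining. These are 8 of the 20 RNA libraries and 8 of the 44 libraries of the series. The other 12 RNA libraries were mutant too, 4 euthymic and COX-negative, 4 depressive and COX-positive, and 4 depressive and COX-negative, and no other WT group was measured for RNA. The series also held H3K27ac libraries of 4 brain regions and ATAC-seq libraries of PVT. The labels name neither the promoter that drives the mutant enzyme nor the cells that carry it, and do not say whether the 4 libraries of a group came from separate animals. The p-values therefore measure the spread between these libraries, which may be technical.

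Polg encodes the catalytic subunit of the polymerase that copies mitochondrial DNA, and the aspartate exchanged for alanine in this mutant lies in the part of the enzyme that removes misplaced bases. A polymerase without this proofreading leaves errors and deletions in mitochondrial DNA, which encodes some subunits of the respiratory chain, among them the core of complex IV (cytochrome c oxidase). Cells that lose enough intact mitochondrial DNA stain weakly or not at all for this enzyme, and a COX-positive cell still holds its activity. The PVT is a midline thalamic nucleus of glutamatergic neurons that projects to the nucleus accumbens, amygdala and prefrontal cortex and takes part in arousal and emotional behaviour. The question the comparison addresses is how the mutant nucleus differs from the wild-type one where the staining is intact and no depressive state was recorded.

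No gene passed the test between the 4 Polg and the 4 WT libraries. With edgeR's quasi-likelihood test and Benjamini-Hochberg adjustment, 0 of 28446 genes tested had an adjusted p under 0.05 (0% called), and the smallest adjusted p was 0.179. At an unadjusted p under 0.05 there were 4357 genes (15.3% of those tested), 1906 higher in Polg (6.7%) and 2451 lower in Polg (8.62%). DESeq2's Wald test on the same counts called 1495 of the 19689 genes to which it gave an adjusted p (7.59%), 902 higher in Polg (4.58%) and 593 lower (3.01%). Of these 1495 genes, 1340 (89.6%) had more than 50% of the summed level of the 8 libraries in a single library, and 200 (13.4%) had 4 Polg libraries that all lay on one side of the 4 WT libraries. The voom and limma-trend fits called 0 genes each, with 1256 and 1069 at an unadjusted p under 0.05.

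Levels are given as CPM, read counts of a gene per 1000000 counts of its library after TMM scaling (trimmed mean of M values), log2 changes are Polg over WT with their standard error (SE), and libraries are numbered within a group in the order of the table's columns. Total counts ran from 35723041 to 62356168 in Polg and from 27607219 to 44927326 in WT. The 14 loci that took at least 1% of any RNA library held 9.17%, 56.1%, 5.78% and 53.1% of the counts in Polg replicates 1 to 4, against 21.6%, 35.9%, 31.8% and 14.7% in WT replicates 1 to 4. Genes with at least 1 count numbered 32421 to 35363 in Polg and 29960 to 42978 in WT. In an exact permutation test over the 70 assignments of 8 libraries, no difference in total counts, genes detected, the share of dominant loci or the rank correlation of counts with gene span passed the threshold (2-sided exact p from 0.257 to 0.743, adjusted p 0.743 for all 4 properties; the smallest p possible was 0.0286). The scaling factors spread most in WT, with 0.323 in WT replicate 3 and 3.91 in WT replicate 4, against 0.740 to 1.58 in Polg. Summed over all genes tested, CPM thus ran from 633836 to 1351510 in Polg and from 255674 to 3098017 in WT. Sums of CPM over gene lists carry these factors as well. The plot of library properties shows these values side by side.

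**Figure D1:**
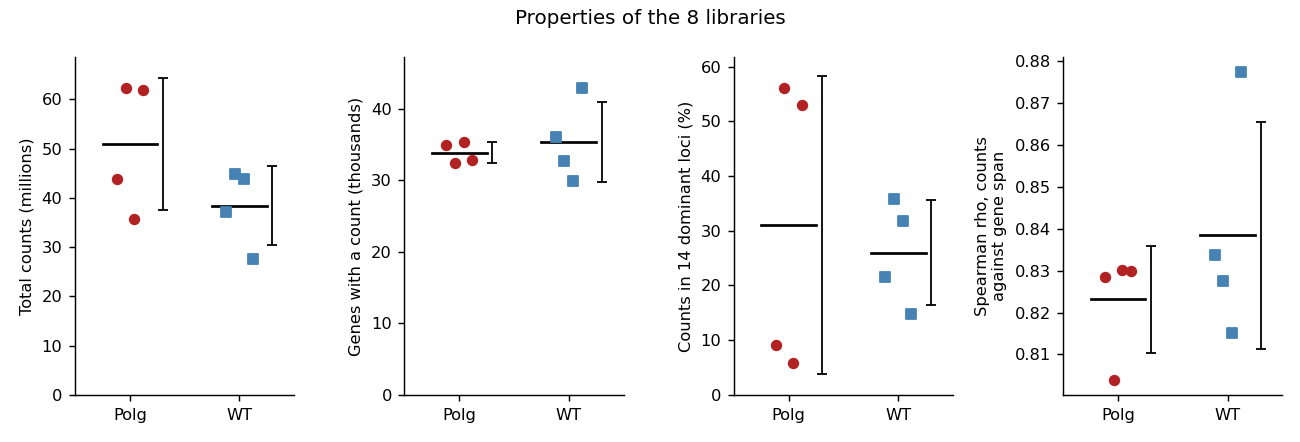
Total counts, genes with a count, the percentage of counts in the 14 dominant loci and the Spearman correlation of counts with gene span, for 4 Polg (circles) and 4 WT (squares) libraries. Bars are group means and whiskers 1 SD (n = 4 each). Polg replicates 2 and 4 held 56.1% and 53.1% of their counts in the dominant loci, above every WT library, and the other 2 Polg libraries lay below every WT library.

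Counts followed the length of genes in every library. The rank correlation of a gene's count with its span in the genome was 0.804 to 0.830 in Polg and 0.815 to 0.877 in WT, across genes of one library, which are not independent replicates. Protein-coding genes whose start site lay within 1000 bp of an H3K27ac peak of PVT nuclei (8905 genes) had 0.869 to 1.05 times as many reads per kilobase of span in Polg, and 0.927 to 1.07 times in WT, as genes without such a peak (8228 genes). A count was found for 92.5% to 97.1% of the genes with the mark and for 84.5% to 89.0% of those without it in Polg, against 91.9% to 99.3% and 78.9% to 95.7% in WT. The 14 pan-neuronal genes had 0.503 to 2.04 times the reads per kilobase of genes of non-brain tissues in Polg, against 1.04 to 7.53 times in WT. The part that the make-up of the libraries has in the gene values was not tested.

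Single libraries set most group means. For 15172 genes, 53.3% of those tested, 1 of the 8 libraries held more than 50% of the summed CPM, and for 7.95% it held more than 90%. Each library led such genes, from 1446 genes in WT replicate 4 to 2408 genes in Polg replicate 2. The median SE of a log2 change was 1.57, so that the median 95% interval reached 3.34 to either side on the log2 scale (15 residual degrees of freedom). Each SE is the absolute log2 change divided by the square root of the F statistic of the quasi-likelihood test. That test used moderated degrees of freedom, with a median of 33.1, so the interval is somewhat wider than the test's own. The fitted change, which follows means, and the difference of group medians had opposite signs for 24.1% of genes. Over all genes tested the median fitted change was -0.01, and the group median was higher in Polg for 41.9% of genes and lower for 58%. The rank correlation of counts between pairs of libraries, over the tested genes, had a median of 0.616 within Polg (6 pairs), 0.697 within WT (6 pairs) and 0.649 between them (16 pairs).

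The mutated gene itself shows the pattern. Polg (chr7:79446231-79467911, build GRCm38.p6) had 0.559, 2.40, 0.825 and 199.9 CPM in Polg libraries, against 3.02, 0.946, 3.69 and 3.02 CPM in WT libraries. Polg replicate 4 stood far above the other 7 libraries, and the remaining 3 Polg libraries overlapped with WT or lay below it. The median was 1.61 CPM in Polg and 3.02 CPM in WT, while the fitted log2 change was 4.25 with an SE of 1.79 (edgeR adjusted p = 0.273). The exact permutation test of log2(CPM + 1) gave a 2-sided p of 0.971, with means of 2.73 ± 3.32 in Polg and 1.80 ± 0.57 in WT (SD, n = 4 each). Without Polg replicate 4 the log2 change was -1.06, so its sign rests on that library. Whether counts of this gene come from the mutant or the endogenous copy cannot be read from the table.

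In the other mutant groups Polg was higher. It was at 56.3, 35.8, 139.6 and 7.75 CPM in the euthymic COX-negative libraries, at 102.8, 12.2, 65.5 and 7.32 CPM in the depressive COX-positive libraries and at 94.3, 0.861, 197 and 1.58 CPM in the depressive COX-negative libraries. Thus 10 of these 12 lay above the highest of the 4 WT libraries, which are the same controls, against 1 of the 4 euthymic COX-positive ones. Among all genes tested the median number above the highest WT library was 2 of 12, and 42 genes (0.148%) reached 10 or more. These counts are descriptive, since every group is set against the same 4 WT libraries.

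The 250 bases before the Polg start listed in the RefSeq promoter table (GRCm38.p6) are shown because peaks placed at this gene carried a chromatin signal in both genotypes while the RNA counts of the gene differed widely between libraries. They lie at chr7:79466274-79466523 on the minus strand, inside the gene span given above, which reaches beyond this start, and are printed 5′ to 3′ with the GC box GGGCGG or its reverse complement CCGCCC in capitals.
Polg: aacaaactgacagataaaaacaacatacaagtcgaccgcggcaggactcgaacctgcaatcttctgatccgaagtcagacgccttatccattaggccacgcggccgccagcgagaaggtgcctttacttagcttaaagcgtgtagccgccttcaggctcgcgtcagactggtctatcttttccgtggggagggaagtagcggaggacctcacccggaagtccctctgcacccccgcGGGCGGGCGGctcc
The 2 matches overlap, just before the start site, and no CCAAT or ATTGG was in the window. Of 32851 annotated promoters of the same length, 32.7% held a GC box and 33.8% held a CCAAT box on either strand, so a match is common. The single H3K27ac peak within 1000 bp of any listed start of Polg held 2.84 and 7.29 CPM in Polg PVT nuclei, against 2.34 and 2.79 CPM in WT nuclei. The single ATAC-seq peak held 24.3 and 25.7 CPM in Polg nuclei, against 27.3 and 22.8 CPM in WT nuclei. Open chromatin thus overlapped between genotypes, and 1 of the 2 Polg H3K27ac libraries lay above both WT ones. With 2 libraries a group these values are descriptive.

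**Figure D2:**
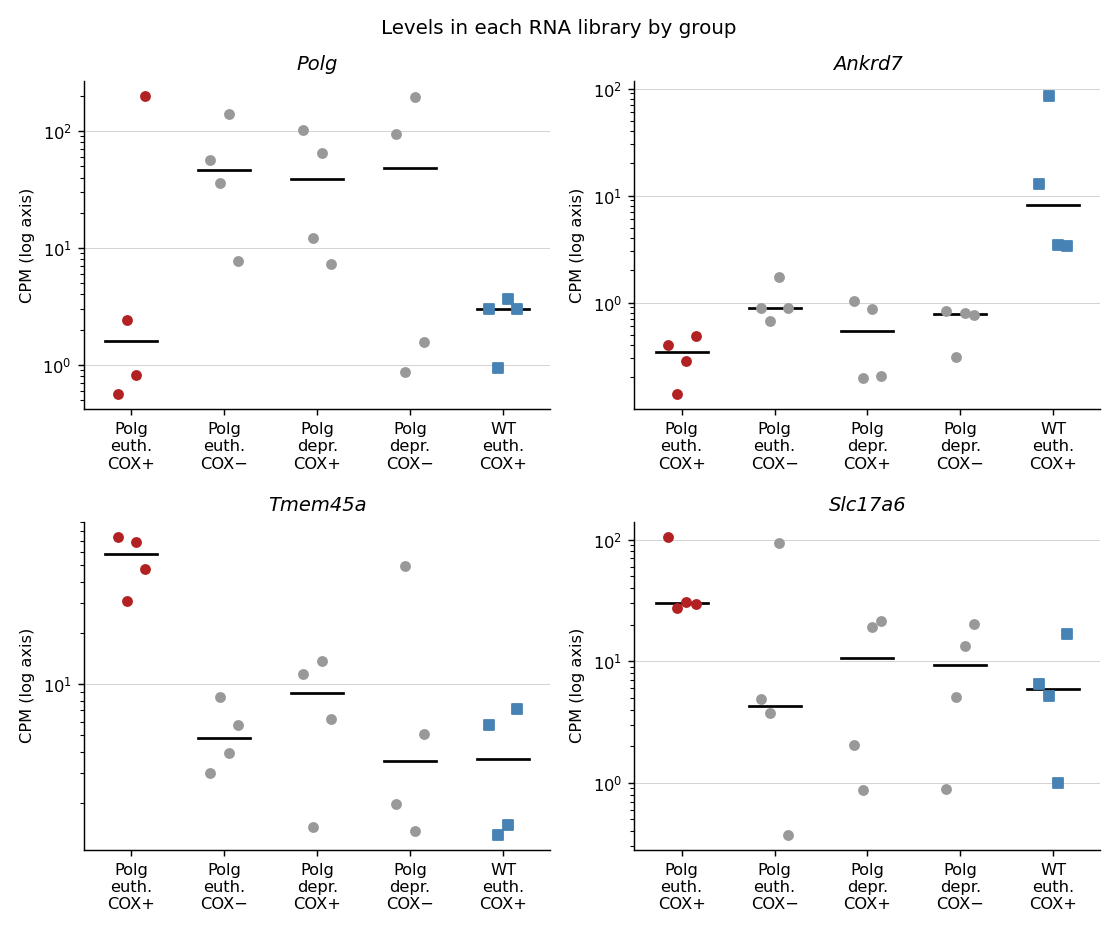
Levels of Polg, Ankrd7, Tmem45a and Slc17a6 in CPM (log axis) in each of the 20 RNA libraries, by genotype, behavioural state (euthymic or depressive) and COX staining, with lines at group medians. Polg reached 199.9 CPM in 1 of 4 euthymic COX-positive Polg libraries, Ankrd7 lay below all 4 WT libraries in all 16 mutant libraries, and Tmem45a and Slc17a6 lay above all 4 WT libraries in all 4 euthymic COX-positive Polg libraries.

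The mitochondrial genome could not be followed. The 37 mitochondrial genes of the table, including the 13 protein-coding ones, held 0 counts in every library, so nothing is known here of the subunits that mutated mitochondrial DNA would encode. The nuclear genes of mitochondrial DNA maintenance were measurable. Among 13 tested genes of replication (14 in the table), 0 had groups that did not overlap, 4 had a higher and 9 a lower median in Polg, and 1 had an unadjusted p under 0.05, which was Polg itself. Their median fitted change was 0.90 but the median of the differences of group medians was -0.39, so the list had no single direction. Top3a, a topoisomerase that separates linked mitochondrial genomes, was at 2.84, 7.35, 138 and 47.1 CPM in Polg, against 0.957, 16.6, 0.994 and 7.28 CPM in WT. The groups overlapped, and Polg replicates 3 and 4 were the highest of the 8. Rnaseh1, which removes RNA primers, was at 0.353, 0.0116, 0.179 and 0 CPM in Polg, against 0.0346, 4.23, 1.21 and 2.49 CPM in WT, with 3 WT libraries above all Polg libraries and the fourth within their range.

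The polymerase that transcribes mitochondrial DNA gives an example of how 1 library can set a change. Polrmt was at 0.913, 0.0809, 0.753 and 1.07 CPM in Polg, against 0.473, 1.01, 1212 and 2.53 CPM in WT. WT replicate 3 held 99.4% of the summed level, and the fitted log2 change was -8.75 with an SE of 2.08 (edgeR adjusted p = 0.180). Mterf1b, a mitochondrial transcription termination factor, was the mirror case, at 0.0589, 2.61, 0.0897 and 129 CPM in Polg, against 0.0692, 0.189, 0.142 and 0.328 CPM in WT. Polg replicate 4 held 97.4% of it, and without that library the log2 change was 2.32 in place of 7.47.

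Nuclear subunits of complex IV, the enzyme that defined the staining class, leaned lower in Polg by their medians. Of 11 tested subunits (16 in the table), all 11 had a lower median in Polg, against 58% of all genes tested, although 0 had groups that did not overlap and 0 passed the adjusted threshold. With DESeq2 size factors the count was 10 of 11, against 51.1% of all genes, and with total counts alone it was 11 of 11, against 61.2%. Their median fitted log2 change was -2.04, beside -0.01 over all genes, and the median of the differences of group medians was -0.44, beside -0.08. Summed over the 16 subunits the level was 6.80, 7.51, 5.04 and 3.73 CPM in Polg, against 30.1, 5.68, 559 and 18.5 CPM in WT. These sums are small and overlap, since WT replicate 2 fell between Polg replicates, and WT replicate 3 held the highest sum, mostly through Cox5b and Cox6b1. Each sum also carries the scaling factor of its library.

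Cox5b, a subunit that regulates the enzyme's activity, was at 0, 0.485, 0 and 0 CPM in Polg, against 0.127, 0.189, 498 and 0.834 CPM in WT. The Polg values rest on 0, 42, 0 and 0 counts and the WT values on 11, 6, 7011 and 89 counts. The log2 change was -9.95 with an SE of 2.62 (edgeR adjusted p = 0.187). Cox6b1, a subunit on the outer face of the enzyme, was at 0.486, 0.139, 0.807 and 0.789 CPM in Polg, against 0.300, 1.55, 47.4 and 0.909 CPM in WT. Cox7b was at 1.16, 2.51, 0.933 and 0.351 CPM in Polg, against 22.8, 1.39, 0.426 and 1.08 CPM in WT, and its high value lay in WT replicate 1. Cox5a was at 0.339, 0.0462, 1.31 and 0.351 CPM in Polg, against 0.484, 0.568, 5.40 and 1.69 CPM in WT. For each of these subunits the groups overlapped, and the highest was WT replicate 3 for Cox5b, Cox6b1 and Cox5a and WT replicate 1 for Cox7b. Their genes lie on chromosomes 1, 7, X and 9.

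**Figure D3:**
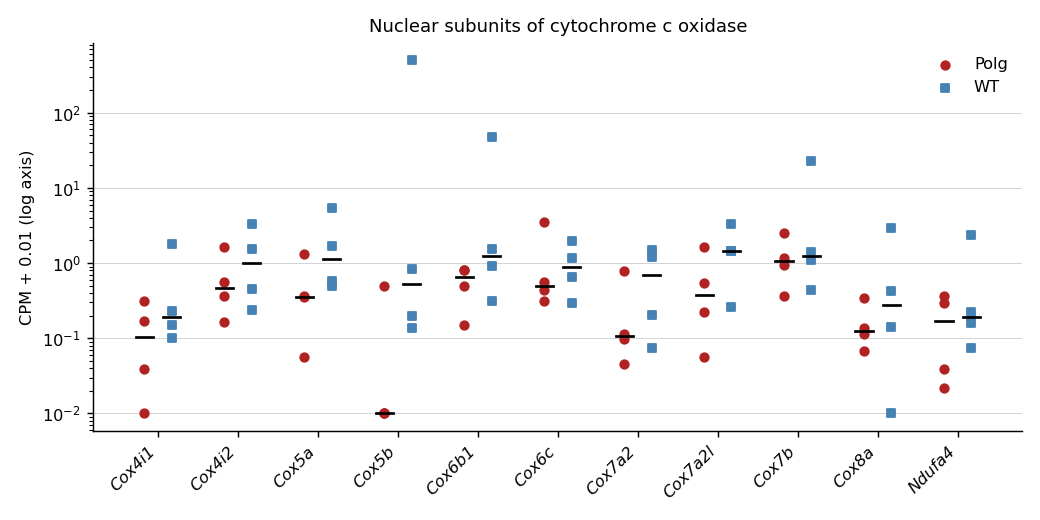
CPM + 0.01 (log axis) of the 11 tested nuclear subunits of complex IV in 4 Polg (circles) and 4 WT (squares) libraries, with lines at group medians. The Polg median is lower for all 11 subunits and the libraries overlap for every one, and the highest point is Cox5b at 498 CPM in WT replicate 3.

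The assembly factors of complex IV, which insert its copper and haem and join its subunits, were counted separately. Of 19 tested factors, 6 had a higher and 13 a lower median in Polg (68.4% lower, against 58% of all genes), which with DESeq2 size factors became 10 higher and 9 lower. The difference between this list and the subunits was not tested. Of the 19, 1 had groups that did not overlap. This was Pet117, at 0.0883, 0.0231, 0.251 and 0 CPM in Polg, against 1.13, 3.50, 28.4 and 0.262 CPM in WT. The gap between the highest Polg and the lowest WT library was 0.01 on the log2(CPM + 1) scale, and the groups overlapped with DESeq2 size factors. Cox17, a copper chaperone of the enzyme, was at 0.707, 2.32, 251 and 0.0657 CPM in Polg, against 0.576, 1.07, 0.710 and 0.918 CPM in WT, so its fitted log2 change of 6.27 came with Polg replicate 3, which held 97.5% of the level.

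The other complexes gave mixed counts. Complex I had 33 tested nuclear subunits, 11 with a higher and 22 with a lower Polg median, and 3 higher and 2 lower at an unadjusted p under 0.05. Ndufv2, a subunit that carries electrons from NADH, was at 1.60, 0.116, 1.74 and 1.40 CPM in Polg, against 33.0, 17.6, 1.70 and 5.68 CPM in WT, and only WT replicate 3 fell within the Polg range. Ndufa8 was at 0.0589, 0.0116, 94.8 and 4.32 CPM in Polg, against 0.173, 0.189, 0.0710 and 0.581 CPM in WT. Complex II, which has no mitochondrially encoded subunit, had 6 tested genes, 5 with a higher and 1 with a lower Polg median, and 0 at an unadjusted p under 0.05. Complex V, the ATP synthase, had 15, with 10 higher and 5 lower. Its Atp5j was at 0.0147, 0, 0.161 and 0.329 CPM in Polg, against 0.219, 0.221, 146 and 0.647 CPM in WT, and its Atp5g1 at 0.397, 2.72, 0.108 and 101 CPM in Polg, against 0.0461, 0.757, 0.568 and 0.656 CPM in WT. In both, the large fitted change came from 1 library of the higher group.

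Chaperones and proteases fold and clear the proteins of the mitochondrial matrix and intermembrane space. Of 13 tested chaperones and proteases, 11 had a lower Polg median and 2 had all Polg below all WT libraries, beside 58% and 2.08% of all genes tested. Hspe1, the small partner of the matrix chaperonin, was at 0.0147, 0, 0.0359 and 0.0219 CPM in Polg, against 0.184, 0.221, 0.355 and 0.187 CPM in WT, from 0 to 2 counts per Polg library and 5 to 20 per WT library. The groups did not overlap under any of the 4 scalings, but at this level a few reads decide the order. Hspd1, the large partner, overlaps Hspe1 by its coordinates (chr1:55077833-55088243 and chr1:55088148-55091317), and since the use of strand in counting is not given, reads of the shared stretch cannot be assigned. Hspd1 was at 0.824, 3.39, 0.753 and 0.263 CPM in Polg, against 8.72, 233, 0.781 and 7.71 CPM in WT. The second separated member was Htra2, a protease of the space between the membranes, named after its values were seen, at 0.0147, 0.0347, 0.108 and 0.110 CPM in Polg, against 0.484, 0.599, 0.639 and 0.234 CPM in WT. Dnaja3, a co-chaperone of the matrix, went the other way in 3 libraries, with 122, 4.42, 180.2 and 123 CPM in Polg, against 21.8, 2.56, 5.96 and 9.32 CPM in WT, but Polg replicate 2 lay within the WT range.

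Among 25 tested genes of mitochondrial dynamics and mitophagy, 1 had all Polg above all WT libraries and 0 had all below. Trak2, which links mitochondria to the motors that carry them along axons and dendrites, was at 38.1, 22.4, 146 and 38.1 CPM in Polg, against 1.79, 4.70, 1.85 and 9.23 CPM in WT. The log2 change was 3.80 with an SE of 1.65 (edgeR adjusted p = 0.284), and the groups overlapped when libraries were scaled by total counts alone. Optn, a receptor of mitophagy, was at 1.87 to 2.70 CPM in the 4 Polg libraries, against 2.69, 2.49, 440.1 and 6.11 CPM in WT. Letm1, a cation exchanger of the inner membrane, was counted in a separate list, mitochondrial calcium and permeability. In that list 1 of 13 tested genes, Letm1, had all Polg below all WT libraries, against 2.08% of all genes tested. It was at 1.83, 1.96, 1.09 and 1.31 CPM in Polg, against 21.4, 2.87, 2.06 and 7.12 CPM in WT. Letm1 libraries were apart by only 0.05 on the log2(CPM + 1) scale and overlapped under 2 of the other 3 scalings.

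The integrated stress response, which cells switch on when mitochondria fail, had 21 tested genes, of which 11 had a higher and 10 a lower Polg median and 0 had groups that did not overlap. Its median fitted change was -1.05 and its median difference of group medians 0.03. Chac1, an effector of this response, was at 0, 0.821, 0.0717 and 0.153 CPM in Polg, against 0, 196, 0.142 and 0.0375 CPM in WT, and Atf3, a transcription factor, at 1.91, 0.185, 2.73 and 2.85 CPM in Polg, against 5.53, 263, 0.710 and 6.89 CPM in WT. WT replicate 2 carried both. Eif2ak1, a kinase that starts the response, was at 26.0, 6.15, 132 and 0.942 CPM in Polg, against 2.48, 0.820, 1.77 and 9.30 CPM in WT.

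**Figure D4:**
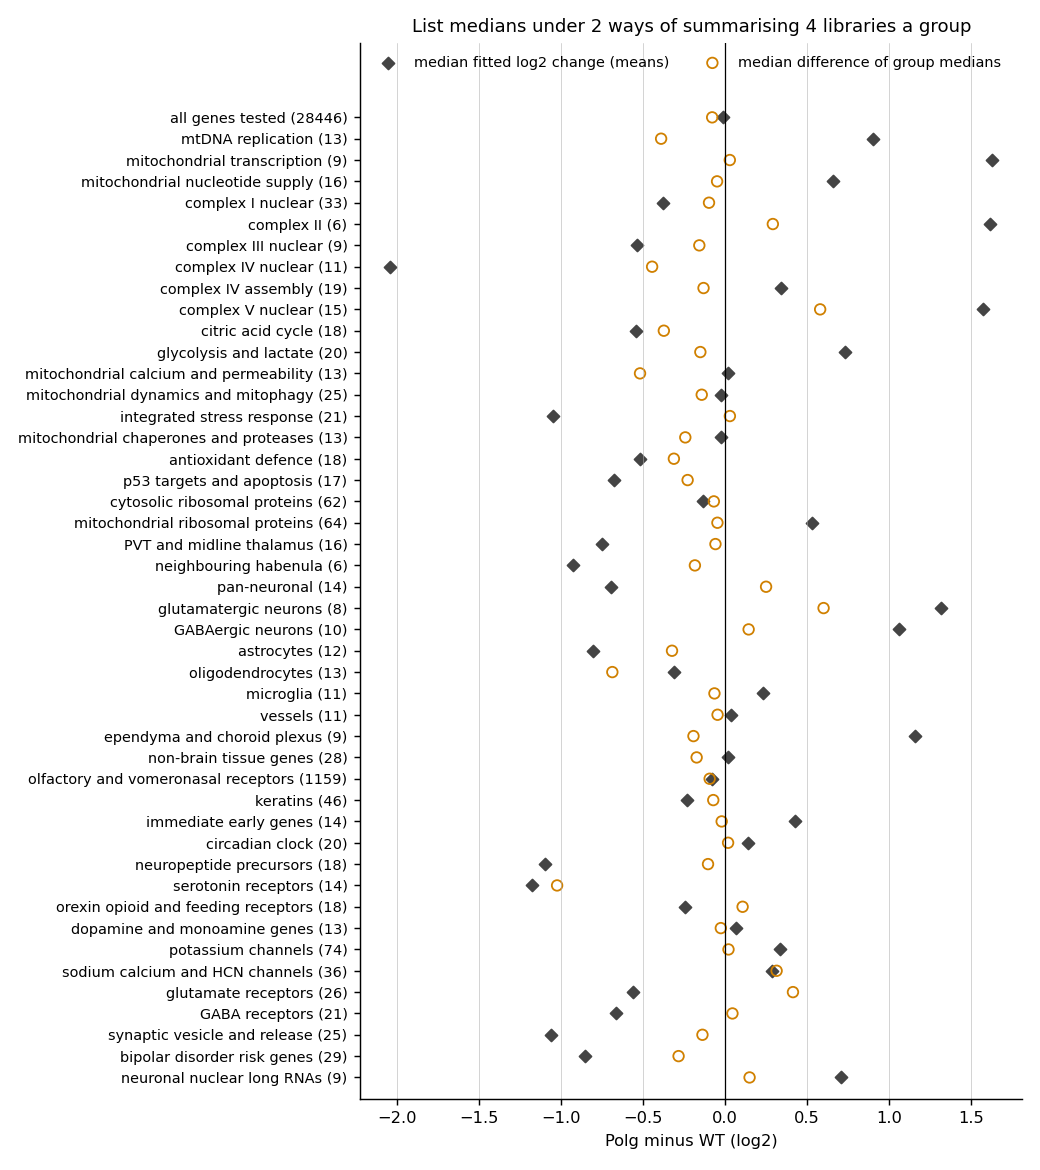
For each gene list with at least 6 tested members (number in brackets), the median fitted log2 change of Polg over WT (diamonds), which follows group means, and the median difference of group medians (open circles). Over all genes the values are -0.01 and -0.08, and for mitochondrial DNA replication, the integrated stress response and pan-neuronal genes the signs of the pair differ.

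Genes whose libraries stood apart do not depend on a single library for their direction. In 757 genes (2.66% of those tested) the 4 Polg and the 4 WT libraries did not overlap, 164 with Polg higher (0.577%) and 593 with Polg lower (2.08%). The split depended on scaling: it was 258 higher and 426 lower with DESeq2 size factors, 14 and 262 with total counts alone, and 274 and 241 with a stricter filter. Under all 4 scalings 14 genes were higher and 103 lower. Most gaps were narrow, with a median of 0.11 on the log2(CPM + 1) scale, and 26 genes had a gap over 1, of which 15 were higher and 11 lower in Polg. Of the 757 genes, 57.1% had an unadjusted p under 0.05, and of the genes at that p 9.92% stood apart. If group labels were assigned at random to the 8 libraries, a gene without ties would stand apart with a probability of 0.0286. The share of 2.66% is close to this and does not exceed it.

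The widest gap with Polg higher was in Tmem45a (chr16:56805161-56886433), which encodes a membrane protein known best from skin, at 73.8, 30.9, 68.9 and 47.8 CPM in Polg, against 5.73, 1.29, 1.49 and 7.15 CPM in WT. The log2 change was 3.82 with an SE of 1.49 (edgeR adjusted p = 0.248, DESeq2 adjusted p = 0.00390), and the groups stayed apart under all 4 scalings. With total counts alone the gap was narrow, since Polg replicate 4 held 2182 of 61929051 counts and WT replicate 4 held 763 of 27607219. Mtnr1b, a melatonin receptor, was at 62.6, 25.8, 47.0 and 67.7 CPM in Polg, against 2.95, 1.07, 0.781 and 8.93 CPM in WT. All 4 Polg libraries lay above WT under all 4 scalings, with no single library ahead, but the width of the gap depended on scaling. Polg replicate 2 held 2229 of 62356168 counts and WT replicate 4 held 953 of 27607219, so with total counts alone the gap was narrow. Pepd, a dipeptidase that frees proline, was at 238, 53.7, 167 and 44.0 CPM in Polg, against 5.83, 2.15, 2.20 and 14.7 CPM in WT, and overlapped with total counts alone. Zfp987, a zinc finger gene with close relatives that may share its reads, was at 53.1, 32.9, 59.5 and 41.5 CPM in Polg, against 10.5, 3.38, 1.21 and 4.45 CPM in WT. Its groups stayed apart under all 4 scalings, but narrowly with total counts alone. Polg replicate 4 held 1892 of 61929051 counts and WT replicate 1 held 913 of 37134740.

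Adcy9, an adenylyl cyclase, had the smallest fold among these, at 87.4, 55.1, 55.2 and 93.0 CPM in Polg, against 24.6, 8.42, 7.95 and 21.8 CPM in WT. Its log2 change was 2.21 with an SE of 1.28 (edgeR adjusted p = 0.405), and its groups overlapped with total counts alone. Col2a1, a cartilage collagen, was at 128, 7.41, 7.12 and 154 CPM in Polg, against 0.288, 0.158, 1.70 and 1.14 CPM in WT. Here Polg replicates 1 and 4 were far above replicates 2 and 3, which still lay above every WT library. Eno4, an enolase of sperm, was at 87.0, 10.4, 51.8 and 44.5 CPM in Polg, against 0.150, 2.49, 0.639 and 3.32 CPM in WT. Lhx2, a developmental transcription factor, was at 21.7, 4.95, 3.64 and 38.3 CPM in Polg, against 0.899, 0.284, 0.852 and 1.04 CPM in WT. Cd6, a receptor of T cells, was at 41.0, 14.6, 10.8 and 47.9 CPM in Polg, against 3.25, 1.26, 1.21 and 3.41 CPM in WT. Several of these genes are best known outside the brain, and each had an edgeR adjusted p between 0.193 and 0.405.

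**Figure D5:**
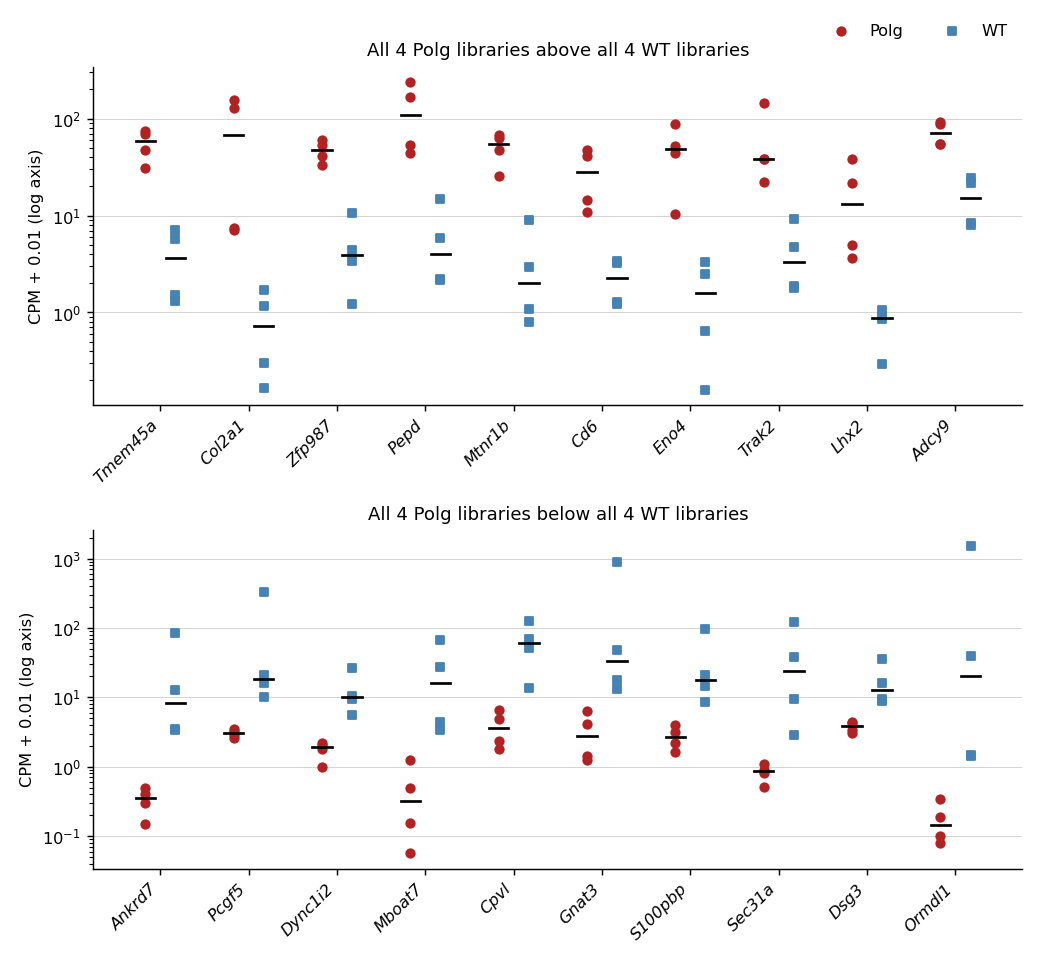
CPM + 0.01 (log axis) of the 10 genes with the widest gap in each direction, for 4 Polg (circles) and 4 WT (squares) libraries, with lines at group medians. Upper panel, Polg above WT, led by Tmem45a at 30.9 to 73.8 CPM in Polg and 1.29 to 7.15 CPM in WT; lower panel, Polg below WT, led by Ankrd7 at 0.139 to 0.482 CPM in Polg and 3.35 to 85.2 CPM in WT.

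Ankrd7 (chr6:18855842-18879589), an ankyrin-repeat gene known from testis, had the widest gap with Polg lower. It was at 0.397, 0.139, 0.287 and 0.482 CPM in Polg, against 12.9, 85.2, 3.48 and 3.35 CPM in WT, from 27, 12, 16 and 22 counts in Polg and 1119, 2702, 49 and 357 counts in WT. The log2 change was -6.32 with an SE of 1.65 (edgeR adjusted p = 0.187, DESeq2 adjusted p = 6.28e-06), and the groups stayed apart under all 4 scalings. With total counts alone the gap was narrower, since Polg replicate 1 held 27 of 43773682 counts and WT replicate 3 held 49 of 43903120. The 12 other mutant libraries, set against the same WT libraries, were at 0.199 to 1.72 CPM, all below the lowest WT library. This held for 33 of all genes tested (0.116%), and for 8 of the 593 genes with Polg lower.

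Pcgf5, a subunit of a Polycomb repressor complex, was even within Polg, at 3.24, 2.61, 2.83 and 3.48 CPM, against 9.97, 327, 16.05 and 21.1 CPM in WT. Gnat3, the G protein subunit of taste cells, was at 1.25, 6.25, 1.43 and 4.16 CPM in Polg, against 17.8, 47.9, 899.9 and 13.01 CPM in WT. Mboat7, an acyltransferase of phosphatidylinositol, was at 0.486, 0.0462, 0.143 and 1.23 CPM in Polg, against 4.45, 27.7, 67.0 and 3.34 CPM in WT. For each of Gnat3 and Mboat7, 10 of the 12 other mutant libraries lay below the lowest WT library, a count that 498 of all genes tested (1.75%) reached or passed. Genes that stood apart were chosen by their level in these same WT libraries, which raises this count. Its median was 7 of 12 among the 593 genes apart with Polg lower, against 3 among all genes tested. For the other 7 genes of widest gap with Polg lower, Ankrd7 aside, the count was 5 for Pcgf5, 6 for Sec31a, 7 for Cpvl and Dync1i2, 8 for Ormdl1 and 9 for S100pbp and Dsg3, and 4 of the 12 lay above the highest WT library for Dync1i2. For the 10 genes with Polg higher, 4 to 7 of the 12 lay above the highest WT library, with 4 for Tmem45a, Pepd and Eno4. The median among all 164 genes apart with Polg higher was 5 of 12. Cpvl, a carboxypeptidase, was at 2.34, 6.55, 4.86 and 1.80 CPM in Polg, against 50.8, 69.0, 126 and 13.6 CPM in WT, and no single WT library carried it. Dync1i2, an intermediate chain of the dynein motor that moves cargo towards the cell body, was at 2.02, 0.971, 1.78 and 2.17 CPM in Polg, against 26.5, 9.56, 5.47 and 10.4 CPM in WT. Its log2 change was -2.90 with an SE of 1.54 (edgeR adjusted p = 0.362), and its groups overlapped with total counts alone.

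Sec31a, a coat protein of vesicles that leave the endoplasmic reticulum, was at 0.795, 1.07, 0.502 and 0.898 CPM in Polg, against 2.85, 123, 37.6 and 9.51 CPM in WT. S100pbp was at 2.19, 4.03, 3.12 and 1.64 CPM in Polg, against 20.9, 96.1, 14.7 and 8.44 CPM in WT, and overlapped with total counts alone. Dsg3, a desmoglein of epithelia, was at 3.39, 3.05, 4.32 and 4.43 CPM in Polg, against 16.1, 35.1, 9.58 and 8.90 CPM in WT, and overlapped under DESeq2 size factors and total counts. Ormdl1, a regulator of sphingolipid synthesis, was at 0.177, 0.0693, 0.0897 and 0.329 CPM in Polg, against 39.2, 1.48, 1522 and 1.41 CPM in WT. Its fitted log2 change of -11.19 (SE 2.40, edgeR adjusted p = 0.179) came with WT replicate 3, which held 97.3% of the level, while the other WT libraries were still above all Polg libraries.

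The promoters of Tmem45a and Pcgf5 are shown because each gene had an H3K27ac and at least 1 ATAC-seq peak near a listed start. The RNA counts of the 2 genes stood apart between the genotypes in opposite directions. The windows are the 250 bases before a start listed in the RefSeq promoter table (GRCm38.p6), at chr16:56886164-56886413 on the minus strand and chr19:36348079-36348328 on the plus strand. The Tmem45a window lies inside the gene span given above, which reaches beyond this start, and Pcgf5 has other listed starts. Both are printed 5′ to 3′ with GC boxes (GGGCGG or CCGCCC) and CCAAT boxes (CCAAT or ATTGG) in capitals.
Tmem45a: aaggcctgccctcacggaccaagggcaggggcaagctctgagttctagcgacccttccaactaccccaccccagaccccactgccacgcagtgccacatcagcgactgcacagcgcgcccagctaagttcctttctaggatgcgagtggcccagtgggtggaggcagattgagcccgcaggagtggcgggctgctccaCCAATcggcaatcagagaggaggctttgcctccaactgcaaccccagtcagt
Pcgf5: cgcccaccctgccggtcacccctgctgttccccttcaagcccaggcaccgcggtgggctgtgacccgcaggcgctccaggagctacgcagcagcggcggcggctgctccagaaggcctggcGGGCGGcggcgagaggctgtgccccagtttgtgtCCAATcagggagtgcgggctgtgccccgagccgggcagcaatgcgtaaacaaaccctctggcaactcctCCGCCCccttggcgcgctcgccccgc
Each held 1 CCAAT box, and Pcgf5 also held 2 GC boxes. The H3K27ac peak of Tmem45a held 4.42 and 4.01 CPM in Polg nuclei, against 4.06 and 3.12 CPM in WT nuclei. Its ATAC-seq peak held 3.44 and 3.36 CPM in Polg, against 4.28 and 5.46 CPM in WT. The H3K27ac peak of Pcgf5 held 23.1 and 33.9 CPM in Polg, against 23.9 and 32.9 CPM in WT. Peaks were placed by any listed start of a gene, so they need not lie at the printed one. The H3K27ac values overlapped between genotypes for both genes, and both ATAC-seq values of Tmem45a were lower in Polg. Over 9392 genes with a promoter H3K27ac peak, Spearman's rho between the RNA change and the chromatin change was -0.0078, and over 10707 genes with an ATAC-seq peak it was -0.0025. Both are descriptions across genes, from different libraries, with 2 chromatin libraries a group.

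The genes of smallest p were mostly those with 1 high library. Nhlrc1, an E3 ligase of glycogen metabolism, was at 105, 0.428, 0.126 and 2.94 CPM in Polg, against 0, 0, 0 and 0.0562 CPM in WT. Psmb5, a proteasome subunit, was at 0.898, 0.0925, 101 and 0.0438 CPM in Polg, against 0.0231, 0.126, 0.213 and 0.0843 CPM in WT. The ribosomal protein genes Rps14 and Rps23 likewise reached 189 and 103 CPM in Polg replicate 3, with medians of 2.34 and 0.880 CPM in Polg, against 0.119 and 0.0173 CPM in WT, and reads of such genes may be shared with processed pseudogenes. Polg replicate 3 thus held the high value of all of Psmb5, Rps14 and Rps23.

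On the lower side, Myl6, a myosin light chain, was at 0.0589, 0.0231, 0.0179 and 0.0219 CPM in Polg, against 7.66, 0.252, 2153 and 0.478 CPM in WT, with the smallest p among named genes (log2 change -14.00, SE 2.75, edgeR adjusted p = 0.179). Neurod4, a neuronal differentiation factor, was at 0.147, 0.0925, 0.628 and 0.504 CPM in Polg, against 0.104, 1.36, 1906 and 2.31 CPM in WT. Cd79a, a B-cell receptor component, was at 0.0736, 0.0231, 0.143 and 0.0876 CPM in Polg, against 15.4, 374, 5.25 and 0.0469 CPM in WT. Suv39h1, a methyltransferase of histone H3, was at 0.132, 0.0578, 0.323 and 0.110 CPM in Polg, against 4.04, 291, 4.54 and 0.871 CPM in WT, and Gtf2a1l, a germ-cell transcription factor, at 1.65, 5.52, 2.46 and 0.942 CPM in Polg, against 20.6, 646, 1345 and 10.2 CPM in WT. In Myl6, Suv39h1 and Gtf2a1l all 4 WT libraries were above all Polg libraries, and in Neurod4 and Cd79a the groups overlapped.

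Genes that mark the nucleus and its cells were checked next. Of 16 tested genes of PVT and midline thalamus, 7 had a higher and 9 a lower Polg median, and their summed level was 406 to 1248 CPM in Polg and 344 to 6328 CPM in WT. The lowest and highest of these WT sums were in WT replicates 4 and 3, whose scaling factors were 3.91 and 0.323. The 1 member that stood apart was Npffr1, a neuropeptide receptor named after its values were seen, at 0.839, 2.42, 2.71 and 2.32 CPM in Polg, against 4.65, 3.22, 4.90 and 3.90 CPM in WT. Of 8 tested genes of glutamatergic neurons, 4 had a higher and 4 a lower Polg median, and 1 stood apart. This was Slc17a6 (chr7:51621830-51671126), the vesicular glutamate transporter of thalamic neurons, at 106, 27.1, 30.7 and 29.8 CPM in Polg, against 6.56, 5.21, 0.994 and 16.8 CPM in WT. The log2 change was 2.71 with an SE of 1.57 (edgeR adjusted p = 0.405), and with total counts alone the groups overlapped. In the 12 other mutant libraries Slc17a6 ran from 0.373 to 94.4 CPM, with 4 above the highest and 3 below the lowest WT library. Its cortical relative Slc17a7 was at 0.692, 4.53, 1.20 and 74.5 CPM in Polg, against 0.404, 0.379, 0.781 and 0.937 CPM in WT, overlapping in Polg replicate 1 alone.

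The defining transcription factor of midline thalamus, Gbx2, was at 0, 0.0231, 0.287 and 0.0438 CPM in Polg, against 0.0115, 170.0, 0.142 and 0.469 CPM in WT, so it was close to 0 in all but 1 library. Calb2, the calretinin gene of PVT neurons, was at 1.38, 2.65, 29.9 and 0.942 CPM in Polg, against 0.415, 2.33, 455 and 3.62 CPM in WT. Foxp2, a thalamic transcription factor with a very long gene, was at 333, 89.8, 113 and 629 CPM in Polg, against 178, 122, 5668 and 113 CPM in WT. For Gbx2, Calb2 and Foxp2 a single WT library was highest. The 14 pan-neuronal genes summed to 358 to 895 CPM in Polg and 314 to 2432 CPM in WT, with 8 higher and 6 lower medians in Polg. These sums carry the scaling factors too.

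Summed markers of other cells overlapped between the genotypes at this scaling, and the sums carry the scaling factors. Of 12 tested astrocyte genes 5 had a higher and 7 a lower Polg median, with sums of 95.9 to 517 CPM in Polg and 71.3 to 3519.9 CPM in WT. Agt, a secreted product of thalamic astrocytes, was at 75.3, 0.208, 0.664 and 1.25 CPM in Polg, against 0.507, 569, 1751 and 1.52 CPM in WT, and Mlc1, an astrocyte membrane protein, at 32.4, 0.624, 1.60 and 103 CPM in Polg, against 0.461, 0.347, 1.06 and 1.83 CPM in WT. Of 13 oligodendrocyte genes 4 were higher and 9 lower by median, with sums of 57.5 to 242 CPM in Polg and 30.7 to 311 CPM in WT. Mbp, the main myelin protein, was at 74.7, 23.6, 156 and 3.66 CPM in Polg, against 1.90, 3.53, 5.40 and 6.85 CPM in WT, while Mag, a myelin-associated glycoprotein, was at 0.471, 2.33, 1.15 and 0.153 CPM in Polg, against 4.58, 273, 1.06 and 2.20 CPM in WT, so genes of the same cell went opposite ways. Of 11 microglial genes 5 were higher and 6 lower, with sums of 53.4 to 449.9 CPM in Polg and 76.8 to 256 CPM in WT. Ptprc was highest in Polg replicate 1 at 349 CPM, while C1qa was at 0 to 0.0462 CPM in Polg, against 17.7, 0, 0 and 0.141 CPM in WT. Their part in the gene results was not tested, and in bulk samples fewer cells of a type and less RNA per cell cannot be told apart.

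Serotonin receptor genes leaned lower by both summaries, and they were not alone in this. The Polg median was also lower for 15 of 18 neuropeptide precursors, 14 of 17 p53 targets and apoptosis genes and 14 of 18 genes of antioxidant defence. Other lists leaned the other way by medians, such as glutamate receptors, with 18 higher and 8 lower. Of 14 tested serotonin receptors, 12 had a lower Polg median, 3 were lower and 0 higher at an unadjusted p under 0.05, and 1 stood apart. Over all genes tested 58% had a lower median, 8.62% were lower at that p and 2.08% stood apart with Polg lower. Their median fitted log2 change was -1.18 and their median difference of group medians -1.02, and with DESeq2 size factors or total counts alone 10 of 14 medians were lower, against 51.1% and 61.2% of all genes under these scalings. The receptor that stood apart was Htr2b, at 0.736, 1.49, 0.466 and 0.131 CPM in Polg, against 29.7, 3.47, 1.85 and 1.99 CPM in WT, though not with total counts alone. Htr1d, an inhibitory receptor, was at 0.545, 0.485, 1.92 and 0.657 CPM in Polg, against 0.772, 387, 2.63 and 3.69 CPM in WT. Htr1b, another inhibitory receptor, was at 0.0736, 0.0231, 0.484 and 0.0657 CPM in Polg, against 0.0346, 7.60, 1232 and 0.796 CPM in WT. The summed level of the 14 receptors was 167 to 243 CPM in Polg, against 244, 1431, 1779.7 and 152 CPM in WT. At this scaling WT replicates 2 and 3 lay far above every Polg library and WT replicate 4 below all of them. The order depends on the scaling factors, which were 0.323 in WT replicate 3 and 3.91 in WT replicate 4. Without them the sum in every WT library, replicate 4 included, lies above the sum in every Polg library. The difference between the sums was not tested.

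Among 29 tested genes at loci linked to bipolar disorder, for which this mutant line is studied as a model, 10 had a higher and 19 a lower Polg median, and 5 were lower and 0 higher at an unadjusted p under 0.05. The share of lower medians was 65.5%, against 58% of all genes, and 8.62% of all genes were lower at that p. The 3 of 29 members that stood apart, all lower in Polg, were Itih3, Mchr1 and Neu3 (the last named after its values were seen). Among all genes tested 2.08% stood apart with Polg lower. With total counts alone 0 members stood apart. Mchr1 rested on 2, 0, 0 and 0 counts in Polg, against 131, 3, 2 and 9 in WT, so a few reads decide its order. Lman2l, a cargo receptor of the secretory pathway, was at 1.77, 2.39, 15.3 and 3.11 CPM in Polg, against 24.8, 141, 1617 and 3.85 CPM in WT, and only WT replicate 4 fell within the Polg range. Itih3, a hyaluronan-binding plasma protein, was at 0.442, 0.0347, 0.0717 and 0.329 CPM in Polg, against 1.23, 0.662, 23.6 and 1.52 CPM in WT, and stood apart except with total counts alone. Ncan, a proteoglycan of the brain's matrix, was at 0.662, 4.95, 2.21 and 1.40 CPM in Polg, against 14.2, 195, 3.05 and 3.68 CPM in WT.

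One long nuclear RNA stood apart. Kcnq1ot1 (chr7:143213111-143296547), an imprinted RNA that silences its neighbours and runs antisense inside Kcnq1, was at 1.59, 17.4, 12.3 and 3.53 CPM in Polg, against 95.4, 952, 43.4 and 19.6 CPM in WT. Its log2 change was -4.99 with an SE of 1.64 (edgeR adjusted p = 0.210), and the groups overlapped with DESeq2 size factors and with total counts alone. Since the use of strand in counting is not given, reads of the sense gene cannot be told apart from it.

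Among the genes chosen for the smallest spread over the 8 libraries, Cntn4, a cell adhesion gene, was at 402, 223, 341 and 307 CPM in Polg, against 227, 303, 196 and 193 CPM in WT (log2 change 0.47, SE 0.90). Nrg1, a growth factor of synapses, was at 438, 243, 324 and 175 CPM in Polg, against 155, 261, 180.4 and 199 CPM in WT (log2 change 0.57, SE 0.91). Both have long spans (chr6:105677632-106700141 and chr8:31807452-32891609), and their groups overlapped. Gapdh, a glycolytic enzyme with a short gene that most cells express highly, was at 0.206, 0.0462, 1.06 and 0.416 CPM in Polg, against 29.2, 0.0315, 0.213 and 1.27 CPM in WT. In 6 of the 8 libraries Gapdh lay at or below 1.06 CPM.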

How the data were processed

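RNA of PVT was measured in 20 libraries made with the Nugen Ovation SoLo kit, per the labels. The authors deposited raw read counts per gene, and per peak for H3K27ac and ATAC-seq of PVT, as whole numbers. Tools listed without versions or roles, per the submitters' processing notes, were DESeq2, featureCounts, Subread, HOMER and STAR, with the build mm10. The sources used here give neither the features counted nor the use of strand.

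Gene symbols were matched for 53620 of 53715 genes, and coordinates (GRCm38.p6, which is mm10) for 38310. All 20 libraries entered 1 edgeR 4.0.16 quasi-likelihood fit (R 4.3.3) with TMM scaling, edgeR's filter, robust dispersion and a mean per group (15 residual degrees of freedom, 28446 genes), with Benjamini-Hochberg adjustment over all genes, 2-sided. The fit was also run on simulated data, and the outcome is not reported here. DESeq2 1.42.0 and limma 3.58.1 gave alternatives. The sources used here do not say whether duplicate molecules were collapsed before counting.

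The groups, lists and members were chosen with earlier results of these data known. Named genes were Polg, the mitochondrial mRNAs, 10 genes per direction of smallest p (group mean of at least 5 CPM) and 10 of widest gap between groups (median of at least 5 CPM in the higher group), up to 4 tested genes of smallest p per list, the 3 genes of highest CPM in each library and the 10 most even genes at 10 CPM or more, with predicted loci left out of all but the lists. The text gives a subset of these. Chromatin CPM were peak counts per 1000000 of the library's summed peak counts, and a peak was placed at a gene within 1000 bp of any of its listed starts. Alternatives changed scaling, filter, tool and libraries.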

Additional observations from a re-analysis of the deposited data

Results flagged for a closer look

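In 25 of 156 sets of 4 libraries (1 per gene named by rule and per library property, in each group), the highest or lowest library stood apart from the other 3 by more of the set's range than Dixon's 95% critical value allows, where chance gives about 1 in 20. Many of these genes were named for a small p, a rule that favours genes with 1 high library, so the excess over chance is built in by that choice. By library, WT replicate 3 stood apart most often, in 7 sets, and Polg replicates 1, 2 and 3 in 4 each.

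Within Polg, gene values on the log2(CPM + 1) scale stood apart in replicate 4 for Polg (share of the range 0.839), in replicate 3 for Psmb5 (0.870), Gbx2 (0.830), Htr1b (0.871) and Htr1d (0.838), in replicate 2 for Cox5b (1), Ndufv2 (0.854) and Dnaja3 (0.890), and in replicate 1 for Myl6 (0.871), Slc17a6 (0.910), Agt (0.850) and Mchr1 (1). Polg replicate 2 also stood apart with the lowest correlation of counts with gene span, at 0.804 (share of the range 0.940).

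Within WT, replicate 3 stood apart for Neurod4 (0.853), Polrmt (0.870), Cox5b (0.920), Atp5j (0.937), Optn (0.853), Foxp2 (0.885) and Itih3 (0.846). Replicate 2 did so for Chac1 (0.9749) and Gbx2 (0.927), replicate 1 for C1qa (0.955) and Mchr1 (0.938) and replicate 4 for Nhlrc1 (1). For Myl6, Cox5b, Gbx2 and Mchr1 in Polg, Nhlrc1 in WT and Htr1b in Polg, all levels of the set were under 1 CPM, so the rank rests on few counts.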

How the results depend on the processing

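The count of 0 genes past the threshold held under every leave-out and edgeR setting except no filter on low counts, which called 2 genes, Myl6 and 1700007M16Rik (the second named after its values were seen), both lower in Polg, and DESeq2's Wald test gave 1495. The Polg log2 change was 4.78 with DESeq2 (adjusted p = 0.0238), ran from -1.06 to 5.18 with single libraries left out, and turned to -1.59 without both Polg libraries in which dominant loci hold more than 50% of counts, an alternative chosen after seeing the data. The number of genes whose groups did not overlap was 276 with total counts alone, 456 among protein-coding genes, 1398 to 1834 with 1 library left out and 4152 without both libraries, where fewer samples make separation easier. Differences of library properties (Polg minus WT) with 1 library left out ran from 8748823 to 17626532 for total counts, from -3332 to 1008 for genes detected, from -3.33 to 13.5 percentage points for dominant loci and from -0.0231 to -0.00235 for the span correlation. Without both libraries the log2 change of Mterf1b was -0.77 and of Atp5g1 -0.44. With 1 library left out, the sign turned for Cox7b (-2.83 to 0.72), Gapdh (-5.10 to 0.65), Chac1 (-9.13 to 2.39), Calb2 (-6.08 to 2.04) and Foxp2 (-3.05 to 1.08). The cause of the other shifts was not tested. The median change over all genes was 0.19 with DESeq2 size factors and -0.50 with total counts alone. Of the 74 genes named by rule, 30 passed under DESeq2 besides Polg, and of 564 list medians, 265 moved by more than the spread between replicates. No paired analysis was possible because the RNA columns carry no replicate numbers. The median 95% interval of 3.34 to either side on the log2 scale holds for 1 gene without adjustment, so it is not the limit of the adjusted test. Much larger changes also missed the adjusted threshold in the main fit, among them that of Myl6 (log2 change -14.00, edgeR adjusted p = 0.179). The change needed to pass differs between genes with their SE, and no single limit of detection is given here.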
